A study of Mus musculus with 54 samples.

Results

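The loss of the sodium-glucose cotransporter SGLT1 (gene Slc5a1) was examined in late proximal tubules of diabetic mice that received vehicle. The comparison used every library with the genotype label Sglt1 KO/Akita and vehicle treatment (6 libraries) against every library labelled Sglt1 WT/Akita with vehicle (6 libraries), 12 of the 52 libraries in the deposited table. All mice were DBA males of 14 weeks. Both groups carried 1 Akita allele of the insulin gene Ins2 (Ins2 Akita/+), a mutation that causes insulin-deficient diabetes, and both received vehicle for 2 weeks. The knockout mice were Sglt1-/- and the wild-type mice Sglt1+/+. The labels name no cell type to which the knockout was restricted. The other libraries used beside this comparison came from nondiabetic Sglt1-/- and Sglt1+/+ littermates on vehicle, and from diabetic and nondiabetic mice of both genotypes given dapagliflozin, an SGLT2 inhibitor, in the diet at 10 mg/kg. A further 5 libraries, from Akita wild-type mice dosed with the incretin mimetic semaglutide (3 nmol/kg/day), entered the filter on low values and the estimate of the spread. Each sample held 70 to 80 tubules, taken from the kidney by laser capture as tubules positive for LTL, a lectin of the proximal tubule, and negative for SGLT2. RNA was sequenced as stranded total RNA from 0.5 ng. The labels do not say whether each library came from its own animal, so the p-values measure the spread between these samples.

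The proximal tubule takes back nearly all filtered glucose. SGLT2 in the early segments carries most of it, and SGLT1 in the late S3 segment carries the remainder with high affinity, together with sodium, across the brush border. GLUT2 (Slc2a2) then releases glucose to the blood side. In diabetes the filtered load is higher and more glucose reaches the late segment, where SGLT1 is the last carrier before the loop of Henle.

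The S3 label was checked against markers. Slc7a13, a cystine carrier of the S3 brush border, ranged over 558 to 1301 TPM in Akita knockout libraries and 720 to 1241 TPM in Akita wild-type libraries. TPM is the deposited level, scaled by transcript length and library; a blank cell, written below as no value, was read as 0 TPM. Slc22a7, an organic anion carrier of S3, ranged over 44.9 to 223 TPM in knockout and 64.1 to 192 TPM in wild-type libraries. Knockout replicates 1 and 5 were the highest of the 12 libraries, with 164 and 99.5 TPM of Slc5a2, the SGLT2 gene that marks earlier segments. The other knockout libraries had 8.95 to 25.1 TPM and the wild-type libraries 7.25 to 66.2 TPM. The mean log2(TPM + 1) of 18 markers of the S1 and S2 segments was 6.64 and 6.16 in those libraries, against 4.42 to 5.01 in the other knockout and 4.16 to 5.85 in the wild-type libraries. Where leaving out knockout replicates 1 and 5 changed a count over a gene list given below, the count without them is given as well. Markers of other nephron segments summed to 1552 to 3114 TPM in knockout and 1864 to 3191 TPM in wild-type libraries. Aqp4 had the highest median of these markers, 739 TPM in knockout and 665 TPM in wild-type libraries. Which cells its transcripts came from was not tested, so the sum is not a measure of other segments alone. Uromodulin (Umod), of the adjoining thick ascending limb, was present in all 12 libraries. Mitochondrial rRNA took 29.8 to 44.2% of the TPM in knockout and 32.2 to 45.8% in wild-type libraries. Of 12 such library measures, none differed after adjustment. The smallest unadjusted p was 0.0216 (exact permutation test, two-sided), for the summed TPM of immune cell markers, with an adjusted p of 0.26. The largest part of that sum was Csf1r, with medians of 304 TPM in knockout and 266 TPM in wild-type libraries. The smallest p that 6 against 6 libraries allow is 0.00216.

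Loss of Slc5a1 itself was near complete in the knockout libraries. Slc5a1 (ENSMUSG00000011034, chr5:33104219-33162870, plus strand, GRCm38) had 0.867, 0.665, 0.695, 0.54, 1.16 and 0.823 TPM in the 6 Akita knockout libraries. In the 6 Akita wild-type libraries it had 65.7, 83.5, 99.1, 84.9, 103 and 81.1 TPM. The groups were far apart, and every library fitted its genotype label. The mean was 0.792 ± 0.215 TPM in knockout and 86.2 ± 13.5 TPM in wild-type tubules (SD, n = 6 each), a 109-fold lower level. The log2 difference was -5.60 (SE 0.20, limma adjusted p = 2.31e-27). No source used here names the deleted exons, so the origin of the remaining signal was not examined. In nondiabetic mice the mean was 0.792 ± 0.345 TPM in knockout and 55.01 ± 18.6 TPM in wild-type tubules, and the log2 difference was -4.91 (SE 0.20). The diabetic difference was larger by 0.69 on the log2 scale (SE 0.28, unadjusted p = 0.0182, adjusted p = 0.999), which did not pass the test.

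Outside the targeted gene, few genes of diabetic S3 tubules passed the test between the genotypes. A gene that did not pass is not thereby shown to be unchanged. Of 15424 genes tested, 4 (0.0259%) had an adjusted p under 0.05, 1 higher (0.00648%) and 3 lower (0.0195%): Slc5a1, Ugt1a10 and Gm43694 fell and Abhd1 rose in knockout tubules. The median log2 difference over all tested genes was 0.0004. An unadjusted p under 0.05 was found for 478 genes (3.1%), 231 higher (1.5%) and 247 lower (1.6%). The groups did not overlap in 37 genes (0.24%), 12 higher (0.0778%) and 25 lower (0.162%). Without knockout replicates 1 and 5, 3 genes passed the test, and Ugt1a10 was the one lost (adjusted p = 0.0921).

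**Figure D1:**
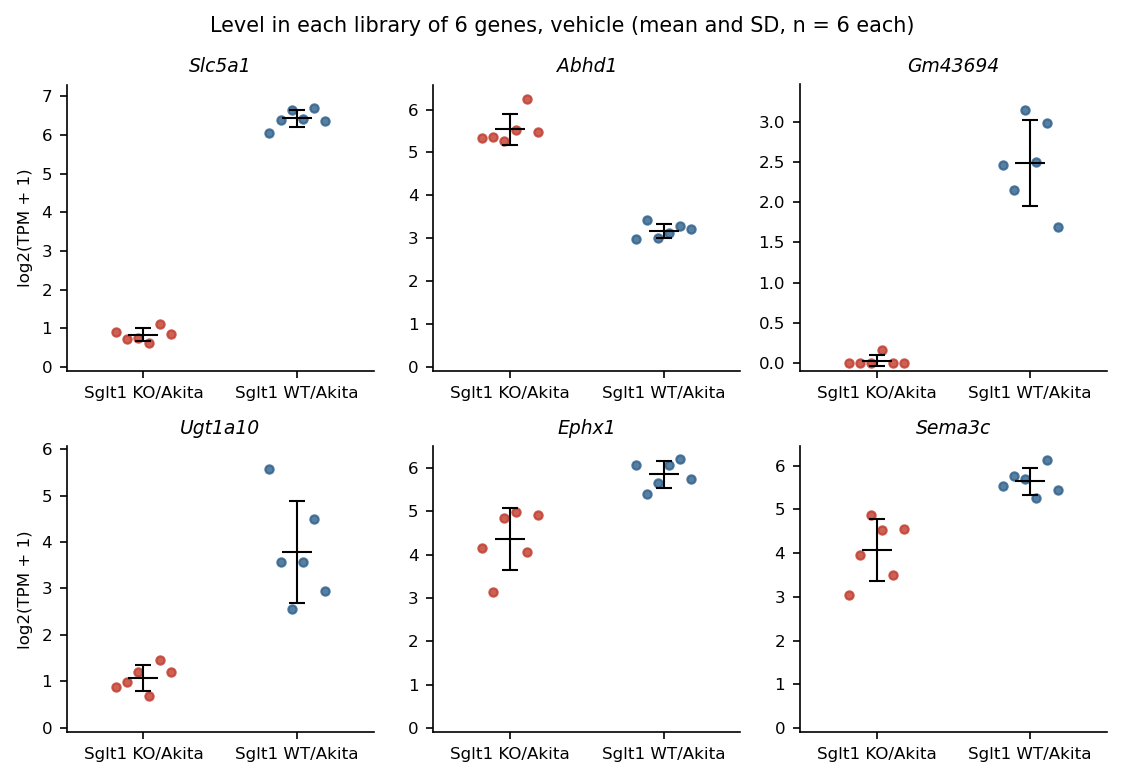
Levels of 6 genes on a log2(TPM + 1) axis in Akita knockout libraries (left, red) and Akita wild-type libraries (right, blue), with each point 1 library and bars the mean and SD (n = 6 each). Slc5a1, Abhd1, Gm43694 and Ugt1a10 passed the test; Ephx1 and Sema3c did not (adjusted p = 0.0974 and 0.21), although none of the 6 genes had overlapping groups.

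Abhd1, an alpha/beta hydrolase domain gene, was the 1 gene that rose. It had 39.3, 39.8, 37.3, 45.1, 75.5 and 43.8 TPM in Akita knockout libraries, against 6.89, 9.74, 7.03, 7.73, 8.68 and 8.28 TPM in Akita wild-type libraries. Every knockout library lay above every wild-type library, and replicate 5 was the highest. The mean was 46.8 ± 14.4 TPM in knockout and 8.06 ± 1.08 TPM in wild-type tubules, 5.81-fold higher, with a log2 difference of 2.36 (SE 0.21, adjusted p = 2.80e-11). Abhd1 lies on the same chromosome as the targeted gene, at chr5:30950066-30955091 on the plus strand, 2.15 Mb before Slc5a1. It overlaps Preb on the minus strand (chr5:30950853-30960361), and whether the authors counted by strand is not given. Preb, which encodes a guanine exchange factor of the secretory pathway, had 107 to 149 TPM in knockout and 139 to 177 TPM in wild-type libraries, with a log2 difference of -0.23 (SE 0.15, adjusted p = 0.999).

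Gm43694, an unconfirmed transcript 0.473 Mb before Slc5a1 (chr5:32629842-32630960, plus strand), had no value in 5 of the 6 Akita knockout libraries and 0.119 TPM in the other. The Akita wild-type libraries had 4.51, 3.43, 7.86, 4.67, 6.92 and 2.22 TPM. Its fall passed the test (adjusted p = 2.48e-07). Slc5a1, Abhd1 and Gm43694 passed it as well in each of the other 3 genotype comparisons, which share no libraries with this one. For Abhd1 the log2 difference was 2.49 in nondiabetic vehicle, 2.69 in Akita dapagliflozin and 2.39 in nondiabetic dapagliflozin mice.

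Both other called genes on chromosome 5 lay near the targeted gene. Within 5 Mb of Slc5a1, 9 of 117 other tested genes (7.69%) had an unadjusted p under 0.05, and Abhd1 and Gm43694 were called. The share was not confined to that window. It was 21 of 244 genes (8.61%) within 20 Mb and 44 of 1065 (4.13%) over the whole chromosome, with no further gene called. On the other chromosomes 433 of 14358 genes (3.02%) had such a p, and Ugt1a10 was called. Tyms, the thymidylate synthase of DNA synthesis, lies 3.03 Mb before Slc5a1. It had 4.24, 2.32, 4.17, 5.25, 3.29 and 2.06 TPM in Akita knockout libraries and 16.6, 3.49, 9.17, 8.19, 11.3 and 5.30 TPM in Akita wild-type libraries. The groups overlapped, and the log2 difference of -1.05 (SE 0.36, adjusted p = 0.999) did not pass. In the other settings the difference of Tyms was -1.10 in nondiabetic vehicle, -1.77 in Akita dapagliflozin and -1.54 in nondiabetic dapagliflozin mice. Cgref1, which encodes a secreted calcium-binding protein, had 101.3 to 213 TPM in Akita knockout and 177 to 287 TPM in Akita wild-type libraries, with log2 differences of -0.58 here and -0.65, -0.45 and -0.95 in those 3 settings in the same order; it was called in nondiabetic dapagliflozin mice (adjusted p = 0.0319). Rbm33 had differences of 0.25 here and 0.29, 0.12 and 0.08 in that order. Tyms, Cgref1 and Rbm33 thus kept 1 sign in all 4 genotype comparisons. Tmem129, Tbc1d14 and Mrpl33 did not: their differences of 0.60, -0.47 and 0.74 here stood beside -0.37, 0.13 and 0.12 in nondiabetic vehicle mice, and Mrpl33 was -0.22 under dapagliflozin in Akita mice. None of these 6 genes passed the test here. The ninth gene of the 5 Mb window, named after its values were seen, was Gm15936. It is a processed pseudogene inside the span of Slc5a1 (chr5:33126802-33127261, plus strand), so that reads may be shared between them. It had no value in any of the 6 Akita knockout libraries and averaged 4.38 TPM in Akita wild-type libraries. Its log2 difference of -1.92 (SE 0.43, adjusted p = 0.111) did not pass, but it was called with library weights (adjusted p = 0.0151) and without wild-type replicate 1 (adjusted p = 0.00556). In the other settings its difference was -1.26, -1.95 and -1.03 in the same order as above. Loss of Slc5a1 and any other sequence carried along with the targeted allele cannot be told apart in this design.

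**Figure D2:**
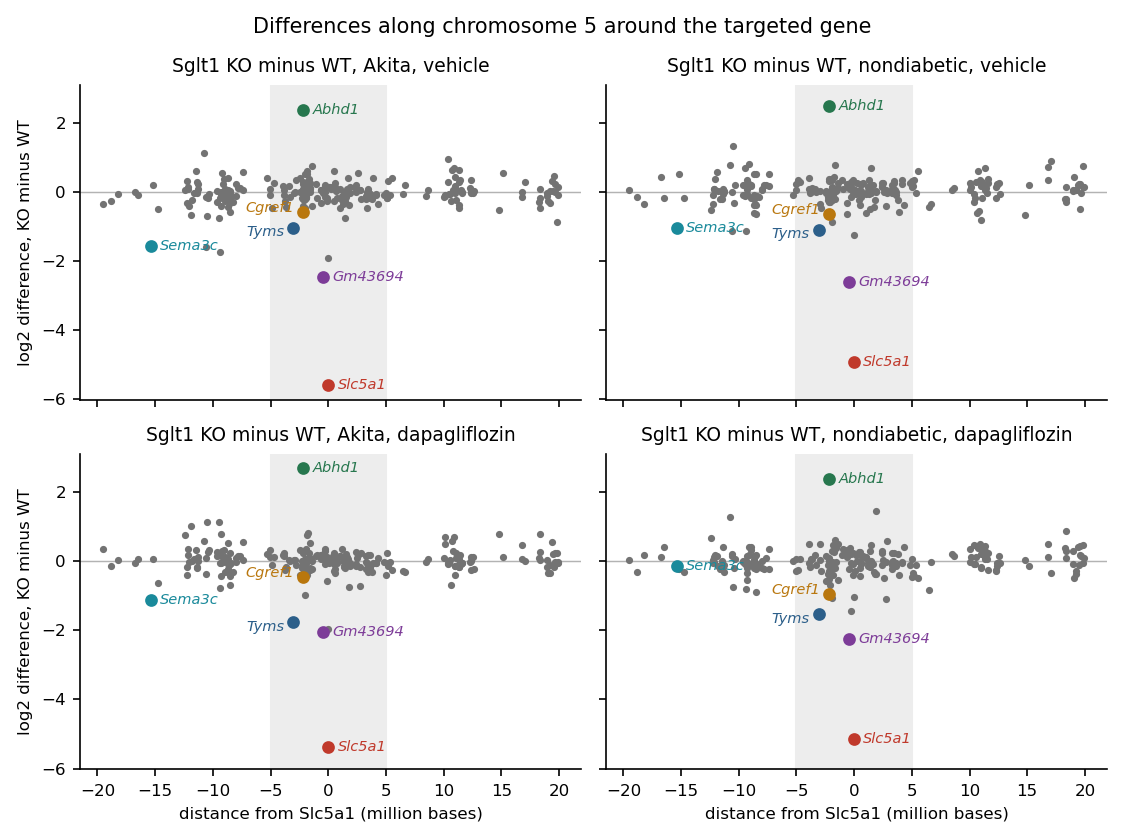
Log2 difference, knockout minus wild type, of tested genes on chromosome 5 against distance from Slc5a1 in Mb, in the 4 settings (1 point per gene; shaded band, 5 Mb to either side). Slc5a1, Gm43694 and Tyms lie below 0 and Abhd1 above 0 in all 4 panels.

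Sema3c, a secreted semaphorin that guides axons and vessels, lies on the same chromosome 15.4 Mb before Slc5a1. It had 7.27, 14.5, 28.1, 22.2, 10.3 and 22.2 TPM in Akita knockout libraries, against 45.1, 53.4, 50.6, 37.5, 69.5 and 42.6 TPM in Akita wild-type libraries. The groups did not overlap. The log2 difference of -1.57 (SE 0.37) did not pass the test (adjusted p = 0.21). In nondiabetic vehicle mice its mean was 18.2 ± 8.60 TPM in knockout and 37.6 ± 15.98 TPM in wild-type tubules. The log2 difference there was -1.03. It was -1.11 in Akita dapagliflozin mice but -0.12 in nondiabetic dapagliflozin mice.

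Ugt1a10 was the only called gene away from chromosome 5. It encodes a UDP-glucuronosyltransferase, which links glucuronic acid to lipophilic compounds and drugs. Ugt1a10 (chr1:88055388-88219004, plus strand) had 0.841, 0.977, 1.31, 0.611, 1.74 and 1.30 TPM in Akita knockout libraries. The Akita wild-type libraries had 46.8, 10.9, 4.86, 10.8, 21.6 and 6.65 TPM. The groups were apart, but the wild-type values ranged widely. The log2 difference was -2.71 (SE 0.53, adjusted p = 0.0205). In nondiabetic vehicle mice the mean was 1.70 ± 3.32 TPM in knockout and 0.403 ± 0.987 TPM in wild-type tubules. The genotype difference in diabetic mice was lower than that in nondiabetic mice by 3.21 on the log2 scale (SE 0.75, unadjusted p = 8.74e-05), which did not pass the test over all genes (adjusted p = 0.999). The call rests on few libraries: it was lost when any 1 of 5 libraries was left out, with the highest adjusted p of 0.187 without wild-type replicate 1, and with a pseudocount of 0.1 TPM (adjusted p = 1.00).

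The Ugt1a genes share their last exons, so reads there can be split between them. Ugt1a7c had 66.9, 6.83, 7.91, 23.3, 47.2 and 4.33 TPM in Akita knockout libraries, against 51.7, 12.3, 32.9, 17.9, 19.5 and 10.6 TPM in Akita wild-type libraries, and its groups overlapped throughout. Ugt1a6b had means of 1.98 ± 1.40 TPM in knockout and 2.92 ± 1.39 TPM in wild-type tubules. Of 17 tested glucuronidation and sulfation genes, only Ugt1a10 was called, and none was without knockout replicates 1 and 5. Their median log2 difference was 0.05, and -0.07 without those libraries. Sult1c2, a sulfotransferase, averaged 69.05 ± 15.9 TPM in knockout and 80.2 ± 11.8 TPM in wild-type tubules, and Ugt2b38, another glucuronosyltransferase, 82.96 ± 62.2 and 58.6 ± 53.02 TPM in the same order.

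Ephx1, the microsomal epoxide hydrolase that detoxifies epoxides, came next among annotated genes. It had 16.8, 7.86, 27.7, 30.8, 15.7 and 29.5 TPM in Akita knockout libraries. The Akita wild-type libraries had 66.7, 41.0, 49.6, 65.8, 72.7 and 53.1 TPM. No knockout library reached the lowest wild-type library. The mean was 21.4 ± 9.27 TPM in knockout and 58.1 ± 12.1 TPM in wild-type tubules, and the log2 difference of -1.51 (SE 0.33, adjusted p = 0.0974) missed the threshold. The means in nondiabetic vehicle mice were 18.6 ± 7.503 TPM in knockout and 17.9 ± 8.51 TPM in wild-type tubules. Thus the Akita knockout mean lay within 1 SD of both nondiabetic means and the Akita wild-type mean stood above all of them. The interaction with diabetes was -1.57 (SE 0.47, unadjusted p = 0.0016, adjusted p = 0.999). Ephx1 passed the test when libraries were weighted by quality (adjusted p = 0.024) and when the S1 and S2 marker score was a covariate (adjusted p = 0.0361).

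Genes that the transcription factor p53 activates tended to be lower in knockout tubules, without any that passed the test. p53 responds to DNA damage and other stress, and its targets arrest the cell cycle, promote cell death or limit p53 itself. Of 27 tested targets, none had an adjusted p under 0.05 (0.0259% over all genes). An unadjusted p under 0.05 was found in 9, all lower, where 1.6% of all genes were lower by that measure. The log2 difference was below 0 in 21 of the 27, against 50% of all genes, and the median was -0.36. Without knockout replicates 1 and 5, 21 were again below 0, 9 had such a p and the median was -0.48. The median log2(TPM + 1) over the list in each library was 3.15, 3.01, 3.41, 3.36, 3.84 and 3.84 in Akita knockout and 3.87, 3.72, 3.61, 3.97, 3.90 and 3.57 in Akita wild-type libraries. Knockout replicates 5 and 6 thus lay within the wild-type range, and the other 4 lay below it. Thick ascending limb markers had lower medians in knockout libraries too. Umod had a median of 419 TPM in Akita knockout and 574 TPM in Akita wild-type libraries, Slc12a1 129 and 259 TPM, Egf 349 and 594 TPM, Kcnj1 14.9 and 23.2 TPM and Cldn16 0 and 1.17 TPM in the same order. None of the 4 that were tested had an unadjusted p under 0.05, and Cldn16 was below the filter. Their part in the p53 difference was not tested. In tissue samples such as these, fewer cells with a transcript and less of it per cell cannot be told apart.

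The upstream sequences of 3 p53 targets are shown because p53 binds DNA directly and these promoters hold its consensus half-site; capitals mark each match on either strand. They are the 250 bases before a RefSeq start in GRCm38.p6, for each gene the first entry that held a match. Any other start of these genes was not shown. The positions are chr10:117710759-117711008 on the minus strand for Mdm2, chr11:40755287-40755536 on the minus strand for Ccng1 and chr17:29090729-29090978 on the plus strand for Cdkn1a.
Mdm2: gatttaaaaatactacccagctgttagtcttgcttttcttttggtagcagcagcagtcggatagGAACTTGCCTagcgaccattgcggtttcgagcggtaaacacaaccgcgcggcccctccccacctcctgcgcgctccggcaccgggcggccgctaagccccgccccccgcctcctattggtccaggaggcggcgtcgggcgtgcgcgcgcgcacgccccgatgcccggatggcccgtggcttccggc
Ccng1: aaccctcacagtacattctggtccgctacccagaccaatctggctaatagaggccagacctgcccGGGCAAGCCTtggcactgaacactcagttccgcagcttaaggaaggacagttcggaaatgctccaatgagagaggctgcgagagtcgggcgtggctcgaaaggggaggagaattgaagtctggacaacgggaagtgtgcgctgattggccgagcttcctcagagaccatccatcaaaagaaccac
Cdkn1a: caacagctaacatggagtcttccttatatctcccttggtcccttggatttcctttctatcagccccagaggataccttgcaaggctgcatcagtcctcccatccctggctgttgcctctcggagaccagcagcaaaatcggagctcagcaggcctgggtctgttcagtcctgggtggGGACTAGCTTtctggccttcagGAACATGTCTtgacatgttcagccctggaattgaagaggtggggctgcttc
The half-site occurred in these 250 bases in 12 of the 22 list members with an entry (54.5%) and in 2341 of 32851 promoters (7.13%). A list member counted when any of its entries held a match, whereas the second share counts single entries, so the shares are not directly comparable. The match is a description of letters, not of binding.

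Mdm2, the ubiquitin ligase that marks p53 for degradation, had 48.8, 53.2, 61.7, 47.6, 79.4 and 72.1 TPM in Akita knockout libraries. In Akita wild-type libraries it had 108, 81.5, 79.9, 91.9, 72.8 and 91.1 TPM. Only knockout replicate 5 reached into the wild-type range. The log2 difference was -0.54 (SE 0.15, adjusted p = 0.545). Ccng1, the cyclin G1 target, had 35.1, 36.4, 51.5, 58.3, 86.7 and 68.7 TPM in Akita knockout libraries, against 99.1, 66.9, 87.01, 91.4, 113 and 88.5 TPM in Akita wild-type libraries. Knockout replicates 5 and 6 overlapped with the wild-type range, and the log2 difference was -0.74 (SE 0.24, adjusted p = 0.986). Cdkn1a, the p21 inhibitor of cyclin-dependent kinases, was low in both groups. It had 4.55, 0.581, 1.87, 1.37, 1.07 and 0.238 TPM in Akita knockout libraries and 4.71, 3.59, 1.80, 4.59, 9.71 and 1.94 TPM in Akita wild-type libraries. Its groups overlapped, with a log2 difference of -1.07 (SE 0.34, adjusted p = 0.912). Phlda3, an inhibitor of AKT signalling, averaged 3.80 ± 2.69 TPM in knockout and 8.94 ± 2.51 TPM in wild-type tubules, with a log2 difference of -1.23 (SE 0.39, adjusted p = 0.926).

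Plk2, a polo-like kinase, and Zmat3, an RNA-binding target, were the 2 members whose groups did not overlap (0.162% of all genes were lower without overlap). Plk2 had 4.25, 13.9, 18.03, 19.3, 20.7 and 13.3 TPM in Akita knockout and 34.7, 32.6, 32.4, 25.9, 26.3 and 26.9 TPM in Akita wild-type libraries. Its log2 difference was -1.08 (SE 0.29, adjusted p = 0.492). Zmat3 ranged over 7.08 to 10.1 TPM in knockout and 10.4 to 14.3 TPM in wild-type libraries, so the gap between the groups was narrow. Ckap2, a spindle protein, averaged 0.586 ± 0.355 TPM in knockout and 2.57 ± 1.22 TPM in wild-type tubules. Trp53, the p53 gene itself, averaged 20.2 ± 4.26 TPM in knockout and 16.2 ± 3.03 TPM in wild-type tubules, with a log2 difference of 0.30 (SE 0.22, adjusted p = 0.999). Of 19 tested DNA repair genes none had an unadjusted p under 0.05, and their median difference was 0.12.

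**Figure D3:**
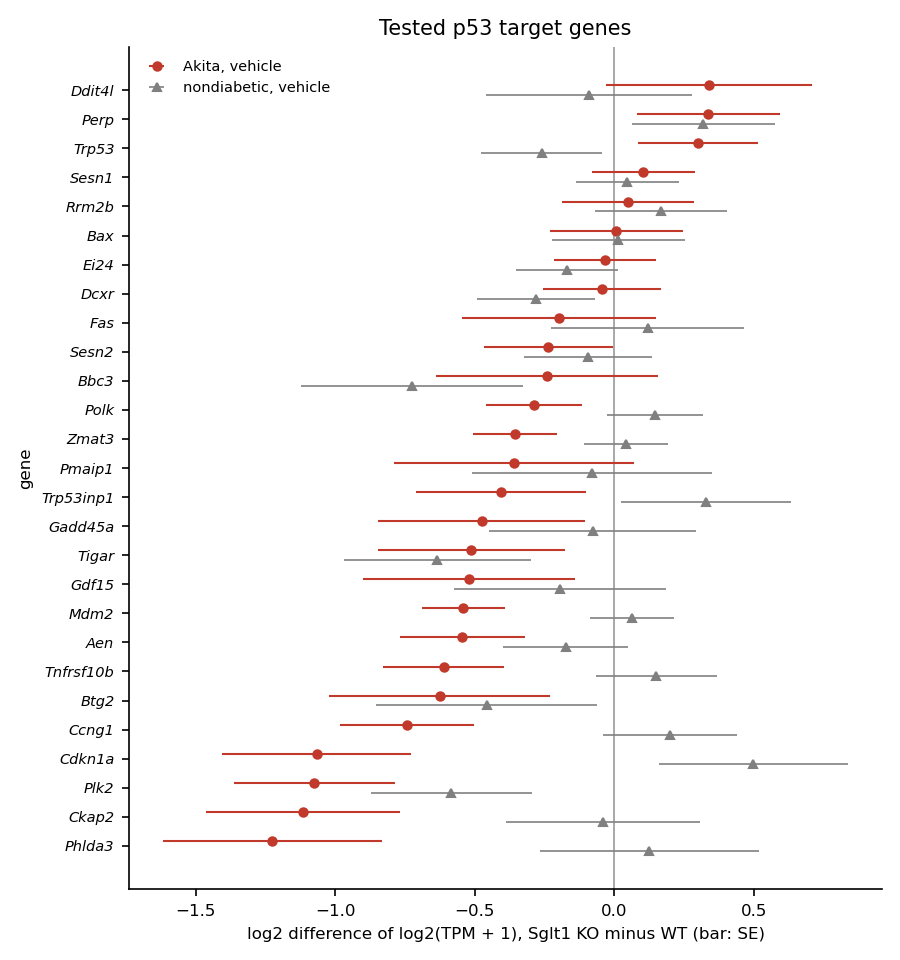
Log2 difference, knockout minus wild type, with its SE (horizontal axis) for the 27 tested p53 targets, in Akita vehicle mice (red circles) and nondiabetic vehicle mice (grey triangles). In Akita mice 21 of the 27 lie below 0, with a median of -0.36, against a median of -0.04 in nondiabetic mice.

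In nondiabetic vehicle mice the same 27 genes had a median difference of -0.04. The median of the interaction with diabetes was -0.32, and 6 of the 27 had an unadjusted interaction p under 0.05, where 4.01% of all genes did; none passed after adjustment. Mdm2 averaged 50.2 ± 8.66 TPM in nondiabetic knockout and 47.7 ± 4.07 TPM in nondiabetic wild-type tubules. Ccng1 averaged 36.9 ± 4.51 TPM in nondiabetic knockout and 33.5 ± 12.4 TPM in nondiabetic wild-type tubules. The genotype difference of Cdkn1a was lower in diabetic than in nondiabetic mice by 1.56 on the log2 scale (SE 0.50, unadjusted p = 0.00204). For Ccng1 the interaction was -0.94 (unadjusted p = 0.00789) and for Mdm2 -0.60 (unadjusted p = 0.00636). The adjusted p of these 3 interactions was 0.999. Under dapagliflozin the list's median genotype difference was -0.21 in Akita mice and -0.19 in nondiabetic mice. In Akita mice on dapagliflozin Ccng1 averaged 45.8 ± 6.25 TPM in knockout and 74.3 ± 26.7 TPM in wild-type tubules.

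**Figure D4:**
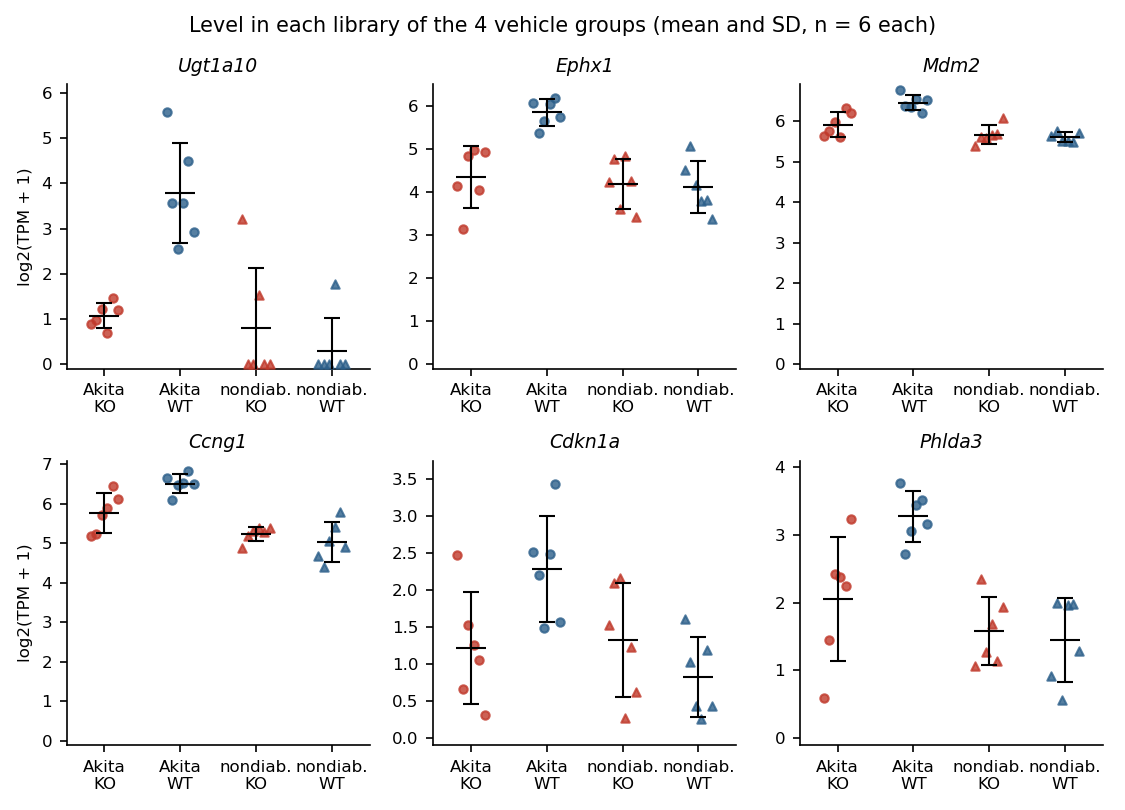
Levels on a log2(TPM + 1) axis of 6 genes in the 4 vehicle groups, ordered Akita knockout, Akita wild type, nondiabetic knockout and nondiabetic wild type (each point 1 library; bars, mean and SD, n = 6 each). In each panel the Akita wild-type mean is the highest of the 4.

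Genes of the interferon response and MHC class I showed the opposite tendency. Interferons act through cell surface receptors to induce antiviral proteins, guanylate-binding proteins, immunity-related GTPases and antigen presentation. Of 30 tested members none was called. An unadjusted p under 0.05 was found in 10, all higher, where 1.5% of all genes were higher by that measure. The difference was above 0 in 28 of 30, against 50% of all genes, with a median of 0.44. The median log2(TPM + 1) over the list was 3.81, 2.88, 3.11, 3.11, 2.73 and 3.08 in Akita knockout libraries and 2.44, 2.76, 2.51, 2.44, 2.55 and 2.58 in Akita wild-type libraries. Knockout replicate 1 was the highest, and only replicate 5 lay within the wild-type range. Without knockout replicates 1 and 5, 26 were above 0, 7 had such a p and the median was 0.36. Leaving out knockout replicate 1 alone, or wild-type replicate 1 alone, left 6 with such a p, as did a fit with the summed TPM as a covariate. The median without knockout replicate 1 was 0.28. Immune cells express many of these genes too. The 21 macrophage, dendritic and lymphoid markers summed to 762, 552, 588, 593, 443 and 528 TPM in Akita knockout libraries and 391, 513, 532, 444, 425 and 423 TPM in Akita wild-type libraries. Csf1r, the receptor for a macrophage growth factor, was the largest part of each sum, at 244 to 396 TPM in knockout and 234 to 288 TPM in wild-type libraries. The median log2(TPM + 1) over the 15 such markers tested was 2.51 ± 0.25 in knockout and 2.45 ± 0.15 in wild-type libraries (mean and SD, n = 6 each), a difference within the spread. Of these 15 markers 13 were above 0, none had an unadjusted p under 0.05, and the median difference was 0.25, or 0.16 without knockout replicate 1 and 0.15 without knockout replicate 4. No marker of that list was at 0 in all 12 libraries: Ptprc (CD45) had 3.12 to 10.6 TPM in knockout and 2.69 to 7.23 TPM in wild-type libraries, and Adgre1 (F4/80) 0.518 to 6.66 and 0.681 to 5.72 TPM in the same order. The part of these cells in the interferon difference was not tested.

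The upstream sequences of Irgm2 and Igtp, neighbouring immunity-related GTPases, are shown because both hold the interferon-stimulated response element (ISRE, by its core consensus on both strands), in capitals. They are the 250 bases before a RefSeq start in GRCm38.p6, at chr11:58214727-58214976 on the plus strand and chr11:58199306-58199555 on the plus strand. Here too the first entry of each gene that held a match was printed, and any other start was not shown.
Irgm2: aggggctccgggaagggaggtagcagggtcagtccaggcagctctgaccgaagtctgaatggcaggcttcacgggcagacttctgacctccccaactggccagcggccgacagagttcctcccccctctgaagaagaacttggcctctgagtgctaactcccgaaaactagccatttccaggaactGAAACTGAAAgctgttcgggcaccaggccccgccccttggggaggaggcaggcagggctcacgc
Igtp: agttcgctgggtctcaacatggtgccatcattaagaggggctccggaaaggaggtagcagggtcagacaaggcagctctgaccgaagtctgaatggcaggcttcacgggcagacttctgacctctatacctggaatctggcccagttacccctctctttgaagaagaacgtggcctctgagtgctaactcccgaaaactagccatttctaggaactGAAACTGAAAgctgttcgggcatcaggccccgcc
The element occurred in 15 of the 27 list members with an entry (55.6%) and in 978 of 32851 promoters (2.98%). As for the p53 half-site, a list member counted when any of its entries matched, so these shares are not directly comparable.

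Irgm2 had 18.8, 5.51, 6.25, 4.33, 4.81 and 9.15 TPM in Akita knockout libraries and 5.17, 2.05, 2.30, 2.58, 5.82 and 3.48 TPM in Akita wild-type libraries. The groups overlapped, with a log2 difference of 0.91 (SE 0.32, adjusted p = 0.999). Igtp had 14.5, 6.20, 7.74, 6.57, 5.33 and 13.4 TPM in Akita knockout libraries and 0.889, 3.87, 7.61, 4.16, 4.41 and 3.01 TPM in Akita wild-type libraries, and its log2 difference was 1.04 (SE 0.39, adjusted p = 0.999). The annotated spans of these 2 genes overlap on 1 strand, so their reads may be shared. Gbp4, a guanylate-binding protein, was the 1 member whose groups did not overlap (0.0778% of all genes were higher without overlap). It had 13.7, 7.34, 7.47, 8.71, 10.0 and 5.83 TPM in Akita knockout and 4.11, 4.83, 2.83, 3.22, 3.22 and 3.81 TPM in Akita wild-type libraries (log2 difference 1.05, SE 0.36, adjusted p = 0.999).

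Among other members chosen for their roles, Iigp1 averaged 5.97 ± 2.50 TPM in knockout and 2.68 ± 1.10 TPM in wild-type tubules. B2m, the light chain of MHC class I, averaged 98.7 ± 38.1 TPM in knockout and 70.4 ± 17.5 TPM in wild-type tubules. Irf1, an interferon-induced transcription factor, had 55.6 TPM in knockout replicate 1, against 10.7 to 22.3 TPM in the other 5 knockout libraries and 10.7 to 22.7 TPM in the wild-type libraries. Ifit1 averaged 2.18 ± 1.02 TPM in knockout and 1.21 ± 0.233 TPM in wild-type tubules. The list's median difference was 0.01 in nondiabetic vehicle mice, 0.15 in Akita dapagliflozin mice and 0.37 in nondiabetic dapagliflozin mice. The list median per library averaged 3.12 ± 0.37 in Akita knockout and 2.55 ± 0.12 in Akita wild-type vehicle mice, and ranged over 2.91 to 3.72 in nondiabetic knockout and 2.83 to 3.83 in nondiabetic wild-type vehicle mice. Under dapagliflozin it ranged over 2.28 to 3.62 in Akita knockout and 2.19 to 2.72 in Akita wild-type mice, and over 2.65 to 4.07 in nondiabetic knockout and 2.39 to 3.00 in nondiabetic wild-type mice. Gbp4 averaged 12.4 ± 8.66 TPM in nondiabetic knockout and 15.2 ± 13.5 TPM in nondiabetic wild-type tubules. The interaction with diabetes had an unadjusted p under 0.05 in 4 of the 30 members, where 4.01% of all genes did. The interaction with dapagliflozin had one in 3 members, where 2.46% of all genes did. None passed after adjustment.

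**Figure D5:**
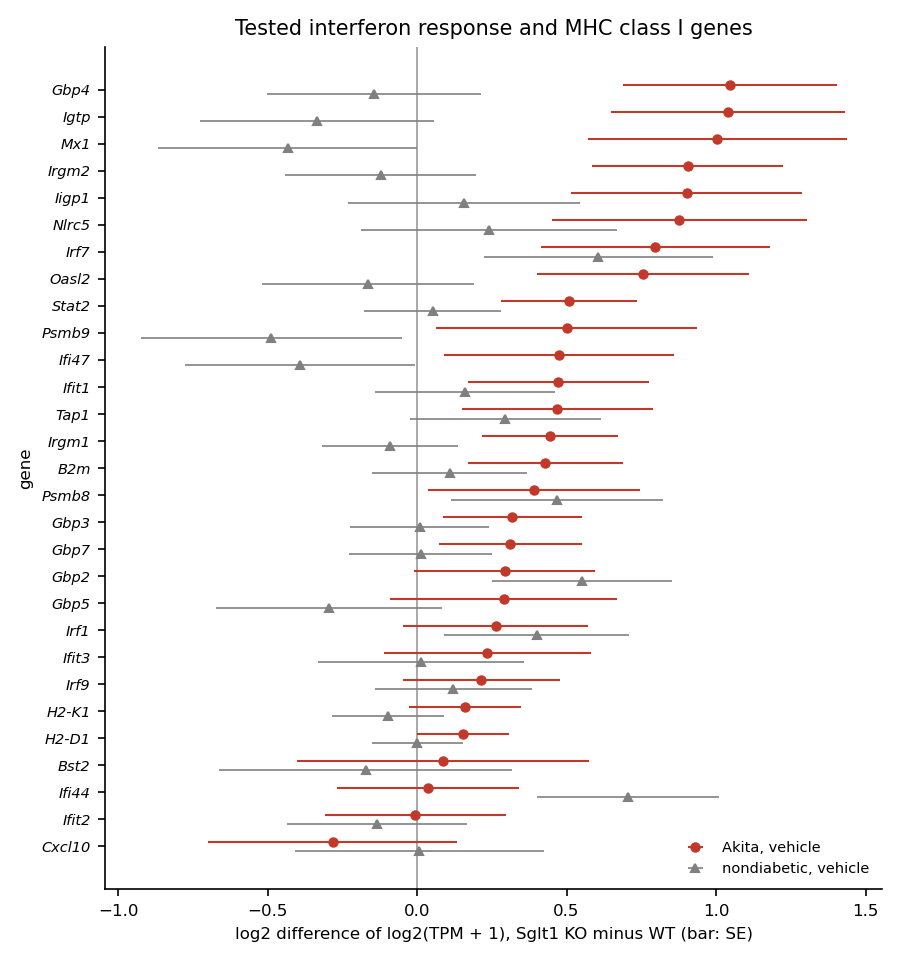
Log2 difference, knockout minus wild type, with its SE (horizontal axis) for 29 of the tested interferon response and MHC class I genes, in Akita vehicle mice (red circles) and nondiabetic vehicle mice (grey triangles). In Akita mice 27 of the 29 lie above 0; the median over the whole list of 30 is 0.44 in Akita mice and 0.01 in nondiabetic mice.

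No other sugar carrier passed the test when SGLT1 was absent. Of 14 tested glucose and fructose transporters, Slc5a1 alone was called and alone had an unadjusted p under 0.05 in the fit as reported. With Slc5a1 counted, 3 had such a p, all lower, in the fit of the compared groups alone. The number was 2 with library weights and with library number as a covariate. Slc5a1 was the only one called in these fits. In the fit as reported 1.6% of all genes were lower by that measure. Slc5a2 averaged 53.4 ± 64.2 TPM in knockout and 29.2 ± 22.0 TPM in wild-type tubules, a difference within the spread of the libraries (log2 difference 0.29, SE 0.86, adjusted p = 0.999). Without knockout replicates 1 and 5 its log2 difference was -0.77 (SE 0.92). Slc2a2, the basolateral GLUT2, averaged 28.6 ± 11.8 TPM in knockout and 32.6 ± 3.86 TPM in wild-type tubules. Slc2a5, the fructose carrier GLUT5, had 374, 190, 309, 314, 423 and 540 TPM in Akita knockout libraries and 432, 586, 517, 595, 681 and 399 TPM in Akita wild-type libraries. Its groups overlapped (log2 difference -0.62, SE 0.35, adjusted p = 0.999). Slc5a9, the mannose and glucose carrier SGLT4, averaged 19.6 ± 4.20 TPM in knockout and 27.7 ± 7.997 TPM in wild-type tubules. Slc5a10, the mannose and fructose carrier SGLT5, averaged 844 ± 205 TPM in knockout and 1058 ± 171 TPM in wild-type tubules.

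Sugar metabolism showed small differences that did not pass. None of 10 tested polyol and fructose genes had an unadjusted p under 0.05, and their median difference was -0.15. Without knockout replicates 1 and 5, 3 of the 10 had one, all lower. In the fit with all libraries 1.6% of all genes were lower by that measure. The share over all genes in fits that left out libraries is not given here. Khk, the ketohexokinase that starts fructose breakdown, had 401, 291, 391, 505, 695 and 551 TPM in Akita knockout libraries and 724, 449, 535, 716, 817 and 497 TPM in Akita wild-type libraries. It lies 2.17 Mb before Slc5a1, and its log2 difference was -0.42 (SE 0.23, adjusted p = 0.999). Tkfc, the triokinase, averaged 388 ± 96.3 TPM in knockout and 465 ± 67.3 TPM in wild-type tubules, and Akr1b3, the aldose reductase, 57.99 ± 19.1 and 46.1 ± 5.44 TPM in the same order. Among 14 tested genes around the sugar-sensing factors ChREBP and MondoA, none had an unadjusted p under 0.05 and 10 were below 0; 2 had one, both lower, without knockout replicates 1 and 5 (1.6% of all genes were lower by that measure in the fit with all libraries). Pklr, the pyruvate kinase that ChREBP induces in liver, averaged 82.8 ± 23.8 TPM in knockout and 117.4 ± 32.2 TPM in wild-type tubules. Acly, which makes cytosolic acetyl-CoA, averaged 122 ± 16.8 and 156 ± 13.9 TPM in that order. Of 18 glycolysis genes none had an unadjusted p under 0.05 and 14 were below 0, with a median of -0.19. Without knockout replicates 1 and 5, 3 had such a p, all lower, as did 3 without wild-type replicate 6 alone and 4 without knockout replicate 5 alone. The other fits that left out 1 library gave 0 or 1. With all libraries 1.6% of all genes were lower by that measure. The enolase Eno1 averaged 335 ± 72.2 TPM in knockout and 411 ± 83.8 TPM in wild-type tubules. Of 18 gluconeogenesis genes none was called, and their median difference was 0.02.

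No proliferation or oxidative stress gene passed the test. Of 17 tested proliferation genes 3 had an unadjusted p under 0.05, all lower, where 1.6% of all genes were lower by that measure: Tyms, Rrm2 and Mki67. The number was 2 without knockout replicates 1 and 5. Tyms lies 3.03 Mb before Slc5a1 and was lower in each genotype comparison given above. Whether its difference came with the targeted allele was not tested. Of the 17 genes 12 were below 0, but 8 with the summed TPM as a covariate. Rrm2, a ribonucleotide reductase subunit, had 0, 1.86, 0.138, 2.89, 1.35 and 0.612 TPM in Akita knockout libraries and 8.49, 5.397, 2.00, 3.84, 1.34 and 3.12 TPM in Akita wild-type libraries. Mki67, the cell cycle marker Ki-67, averaged 2.11 ± 1.44 TPM in knockout and 4.06 ± 1.30 TPM in wild-type tubules. Of 27 tested targets of the oxidative stress factor NRF2, 3 had such a p, all lower, against the same 1.6%: Ephx1, Tkt and Nfe2l2. Tkt, the transketolase of the pentose phosphate pathway, had 90.8, 59.8, 55.1, 64.7, 115 and 71.3 TPM in Akita knockout libraries. The Akita wild-type libraries had 108, 102, 106, 130, 105 and 95.4 TPM, and only knockout replicate 5 reached their range (log2 difference -0.54, SE 0.16, adjusted p = 0.854). Nfe2l2, which encodes NRF2, averaged 29.0 ± 3.68 TPM in knockout and 35.4 ± 6.71 TPM in wild-type tubules. The median over the NRF2 list was -0.11, with 6 of 27 above 0, but 0.01 with 16 of 27 above 0 when the summed TPM was a covariate. It was -0.04 without wild-type replicate 5.

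Of 19 tested genes of tubule injury and failed repair, 1 was higher and 2 were lower with an unadjusted p under 0.05, where 1.5% of all genes were higher and 1.6% lower by that measure. None was higher and 1 was lower without knockout replicates 1 and 5. Krt18, a keratin of simple epithelia, averaged 4.60 ± 2.45 TPM in knockout and 1.18 ± 1.00 TPM in wild-type tubules. Dcdc2a, a microtubule-binding protein, averaged 28.1 ± 4.38 TPM in knockout and 49.6 ± 9.35 TPM in wild-type tubules (log2 difference -0.79, SE 0.29, adjusted p = 0.999). Anxa2, an annexin, averaged 11.7 ± 4.64 TPM in knockout and 18.5 ± 4.63 TPM in wild-type tubules.

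The remaining genes with the smallest p-values, of those averaging 5 TPM or more, are given as values that did not pass. Tbcd, a tubulin-folding cofactor, had 41.4, 30.6, 33.6, 37.4, 33.3 and 38.8 TPM in Akita knockout libraries, against 18.9, 22.5, 25.3, 20.5, 23.2 and 23.0 TPM in Akita wild-type libraries. The groups did not overlap (log2 difference 0.66, SE 0.18, adjusted p = 0.50). Smlr1 averaged 32.2 ± 5.71 TPM in knockout and 16.7 ± 8.01 TPM in wild-type tubules. Flvcr2, a carrier of the FLVCR family, averaged 29.8 ± 7.31 and 18.03 ± 7.04 TPM in that order. Slc25a48, a mitochondrial carrier, averaged 11.8 ± 1.78 TPM in knockout and 7.29 ± 1.80 TPM in wild-type tubules. Adprm, Armc10, Ppm1m and Usp49 were the other higher genes, with log2 differences of 0.79, 0.61, 0.60 and 1.07. On the lower side Pphln1, Tbc1d31 and N4bp2 had log2 differences of -0.56, -0.81 and -0.66. The small nucleolar RNA Snord1c had 32.9 TPM in knockout replicate 2 and no value in the other 5 knockout libraries. It had no value in wild-type replicate 2 and 22.1 to 89.4 TPM in the other 5 wild-type libraries. Snora17, of the same class, had no value in any of the 6 knockout libraries, and in the wild-type libraries it had no value in 1 and 9.20, 9.56, 10.7, 38.4 and 50.2 TPM in the other 5. It also had no value in any of the 5 Akita wild-type libraries on dapagliflozin.

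Whether the genotype effect depended on diabetes or on dapagliflozin was tested directly. No gene had an adjusted p under 0.05 for either interaction in limma. For diabetes 618 genes (4.01%) and for dapagliflozin 380 genes (2.46%) had an unadjusted p under 0.05. Across the other genotype comparisons 3 genes passed the test in nondiabetic vehicle mice (0.0195%), 3 in Akita dapagliflozin mice (0.0195%) and 5 in nondiabetic dapagliflozin mice (0.0324%).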

How the data were processed

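Total RNA from laser-captured kidney tubules was measured by the authors as 1 deposited table of log10 TPM for 19068 genes in 52 of the 54 labelled samples; 1 Akita wild-type dapagliflozin and 1 Akita semaglutide sample were not analysed here. The build is GRCm38, per the submitters' processing notes; the aligner, counter and any library scaling were not given in the sources used here. The TPM of 51 libraries sum to more than TPM allow, so the values were scaled further; read depth is unknown. Blank cells (7.02%) were read as 0. Gene symbols were matched by identifier for 19033 genes, with positions from GENCODE.

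Values were converted to TPM and then to log2(TPM + 1), with a pseudocount of 1 TPM; fold changes on this scale understate those of low genes. The 15424 genes averaging 1 TPM or more across 52 libraries were fitted with limma 3.58.1 in R 4.3.3 (9 group means, trended robust empirical Bayes), with Benjamini-Hochberg adjustment over all tested genes. Called means an adjusted p under 0.05. The code was tested on simulated data. Library measures were compared by two-sided exact permutation tests. The members and gene lists were chosen with earlier results of these data known. Named genes are those called, SGLT1 and SGLT2, the 10 higher and 10 lower annotated genes with the smallest p (mean of at least 5 TPM, log2 difference of at least 0.5 in size), up to 4 per list given plus members known for their role, and annotated genes within 5 Mb of Slc5a1 with an unadjusted p under 0.05; some genes are not reported here. Alternatives were another pseudocount, other filters, median ratio rescaling, library weights, the compared groups alone, 5 covariates and each library left out. Leaving out knockout replicates 1 and 5 was chosen after seeing the data, and no wild-type library was left out with them. Upstream sequences are from RefSeq (GRCm38.p6).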

Additional observations from a re-analysis of the deposited data

Results flagged for a closer look

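In 9 of 106 groups of 6 values checked, 1 library stood far from the others by its gap relative to the range of its group. About 1 in 20 groups would pass this cutoff if the values were normally distributed. That was not checked for these TPM values, and some groups were mostly without a value. The count is therefore not read as an excess. In Akita knockout libraries these were Abhd1 at 75.5 TPM in replicate 5 (next 45.1), Gm43694 at 0.119 TPM in replicate 4 where the others had no value, and Usp49 at 15.5 TPM in replicate 2 (next 6.97). Snord1c stood at 32.9 TPM in knockout replicate 2 with no value in the rest, and Tmem129 at 16.9 TPM in knockout replicate 3 (next 11.2). Irgm2 at 18.8 TPM (next 9.15) and Irf1 at 55.6 TPM (next 22.3) were both high in knockout replicate 1. That library had the highest sum of immune cell markers, of which Csf1r was the largest part. Its median log2(TPM + 1) over the tested immune cell markers was 2.37, within the 2.29 to 2.91 of the Akita knockout libraries. A link between these values was not tested. In Akita wild-type libraries Tkt stood at 129.9 TPM in replicate 4 (next 108) and Cdkn1a at 9.71 TPM in replicate 5 (next 4.71).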

How the results depend on the processing

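The number of called genes was 4 in the fit as reported, 2 (Slc5a1 and Abhd1) with a filter at a mean of 5 TPM, which removes Gm43694 and Ugt1a10 from the test, and 8 with library weights, among them the 4 as reported. Leaving out each library in turn gave 3 to 7, the highest without wild-type replicate 2. Slc5a1 and Abhd1 passed in every alternative run, and Gm43694 in all in which it was tested. Ugt1a10 was lost in 5 of 12 fits that left out 1 library and in 4 of 11 others. Both interactions had 0 called genes in every alternative run. The log2 difference of Slc5a2 turned to -0.19 with the S1 and S2 score as a covariate and to -0.77 without knockout replicates 1 and 5, and leaving out 1 library gave -0.20 (without knockout replicate 1) to 0.61 (without knockout replicate 6), with -0.06 without knockout replicate 5 and -0.02 without wild-type replicate 5. Irf1 ranged over -0.030 to 0.43 with 1 library left out, the lowest without knockout replicate 1, and turned to -0.022 without knockout replicates 1 and 5, and Ugt2b38 to -0.072 without those 2 libraries. Of 74 named genes, the other 71 kept their sign in every alternative run. Among the gene list medians given, those for NRF2 targets (0.01 with the summed TPM as a covariate) and for glucuronidation and sulfation turned sign. The glucuronidation and sulfation median was -0.02 with library number as a covariate, -0.01 and -0.03 without wild-type replicates 1 and 6, and -0.07 without knockout replicates 1 and 5. With the summed TPM as a covariate the median for polyol and fructose genes was -0.07, for glycolysis -0.11 and for DNA repair 0.05. The p53 and interferon medians ranged over -0.26 to -0.48 and 0.28 to 0.53 over all alternatives run. The cause of these changes was not tested, other than the filter's own construction. No paired analysis was possible because the labels give the samples no replicate numbers. Read depth is unknown, so no counting interval could be set on low values.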
